A study of Mus musculus with 16 samples.

Results

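The 1130 regions described here were open in cells on the way from mouse fibroblasts to induced pluripotent stem cells (iPSC) over both the early and the late part of a chemical reprogramming course, and had no peak at either end of it. Open means covered by a peak of ATAC-seq, in which the Tn5 transposase cuts accessible DNA. They were chosen by their coverage alone: after merging all peaks that overlapped by at least 1 bp across the 8 deposited lists, a region was taken if it had a peak in at least 2 of the lists of days 2, 4 and 6, in at least 2 of the lists of days 8, 10 and 12, and in neither the day 0 nor the iPSC list. That rule kept 1130 of 165616 regions, or 0.682% of them. Since every list was used to choose the members, their coverage and levels are given as descriptions, without a test.

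The 16 samples form 8 stages with 2 samples each: embryonic fibroblasts (MEF) on day 0, cells on days 2, 4, 6, 8, 10 and 12 in reprogramming medium, and iPSC. The labels give strain 129XOG2 for the embryos, at E13.5, and all groups share that origin. OG2 animals carry a reporter driven by Pou5f1 sequences. Components of the reprogramming medium are not stated in the labels, while iPSC were grown on feeder cells in a medium with LIF, CHIR99021 (a GSK3 inhibitor) and PD0325901 (a MEK inhibitor). Feeder cells are usually fibroblasts.

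Marker genes were looked up in each list, where an end counts as covered if a peak lies within 1 kb. Ends of the 6 fibroblast markers were covered 6 of 6 on days 0 to 6, 3 of 6 on days 8 and 10 and 1 of 6 on day 12, and 5 of 6 in iPSC, whose feeders' part in this was not tested. Ends of the iPSC markers were covered 0 of 6 on day 0, 1 of 6 on days 2 and 4, 2 of 6 on day 6, 3 of 6 on days 8 to 12 and 5 of 6 in iPSC. Among them, Tdgf1 was covered on days 2, 4 and 6 but not on days 8 to 12. Extraembryonic endoderm markers were covered 1 of 5 on days 0, 4 and 12, 3 of 5 on day 2, 2 of 5 on day 6, 4 of 5 on day 8, 5 of 5 on day 10 and 3 of 5 in iPSC. Sox7 counts in these on days 2, 6, 8 and 10 through a member, which was chosen by that coverage. Spermatid markers, which should be closed in fibroblasts, were covered 5 of 5 on day 0 and 0 of 5 in every other list, and their part in the day 0 list was not tested. No member lay at a spermatid gene (0 of 58 regions, up to 6.16%) or a blood or endothelial gene (0 of 95, up to 3.81%). Over all regions assigned to a gene, 0.715% were members, so nothing is read from these counts. Regions with a day 0 peak could not be members by the rule. In bulk samples, a peak that is open in fewer cells and one that is open to a lesser degree in each cell cannot be told apart.

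In reprogramming by small molecules, fibroblasts lose their own regulatory elements and gain those of pluripotent cells, and an intermediate state that uses genes of the extraembryonic endoderm has been described. Elements open only between both end states are of interest as marks of such passing states. Retinoic acid signalling, in which receptors such as RARB and RXRA bind DNA while DHRS3 and the CYP26 enzymes lower the level of the ligand, acts in the differentiation of primitive endoderm and of many embryonic tissues.

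Promoters that members overlapped are shown first, because they give the DNA of the regions nearest to a gene start. Of the 1130 members, 106 overlapped at least 1 of the 32851 RefSeq promoter windows of GRCm38.p6 (250 bases before to 50 after a start), in all 125 windows of 116 genes, 78 of them protein-coding. Below are the 250 bases before the start, 5′ to 3′ on the strand of the gene, for the 4 member regions with the highest mean rank within their lists that overlap a promoter, and for Isx and Sox2, which were picked after their values were seen. Capitals mark matches, on either strand, to 14 short motifs named further on.
H2bc22: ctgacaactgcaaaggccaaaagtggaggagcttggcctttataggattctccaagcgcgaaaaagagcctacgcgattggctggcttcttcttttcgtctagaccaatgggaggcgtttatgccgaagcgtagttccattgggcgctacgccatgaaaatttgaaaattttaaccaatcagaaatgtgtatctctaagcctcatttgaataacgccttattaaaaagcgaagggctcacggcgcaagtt
Pogz: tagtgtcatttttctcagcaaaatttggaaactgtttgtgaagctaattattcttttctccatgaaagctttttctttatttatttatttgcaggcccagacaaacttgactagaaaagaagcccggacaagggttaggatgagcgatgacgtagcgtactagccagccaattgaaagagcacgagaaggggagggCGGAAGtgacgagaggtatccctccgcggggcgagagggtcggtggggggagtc
Pisd: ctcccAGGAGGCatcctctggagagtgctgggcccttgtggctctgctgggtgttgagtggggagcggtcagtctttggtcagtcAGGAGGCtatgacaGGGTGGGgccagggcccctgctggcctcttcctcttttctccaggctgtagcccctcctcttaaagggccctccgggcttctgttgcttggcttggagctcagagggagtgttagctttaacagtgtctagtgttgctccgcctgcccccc
Gm35438: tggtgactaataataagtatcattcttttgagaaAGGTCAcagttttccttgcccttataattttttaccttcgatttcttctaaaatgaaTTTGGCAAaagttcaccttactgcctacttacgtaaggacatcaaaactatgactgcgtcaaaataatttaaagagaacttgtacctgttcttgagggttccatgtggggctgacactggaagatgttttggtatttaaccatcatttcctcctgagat
Isx: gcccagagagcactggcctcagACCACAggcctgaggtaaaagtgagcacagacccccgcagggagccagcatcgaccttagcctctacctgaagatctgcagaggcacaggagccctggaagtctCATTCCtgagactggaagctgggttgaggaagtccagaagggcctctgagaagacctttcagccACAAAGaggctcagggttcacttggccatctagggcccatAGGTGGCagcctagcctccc
Sox2: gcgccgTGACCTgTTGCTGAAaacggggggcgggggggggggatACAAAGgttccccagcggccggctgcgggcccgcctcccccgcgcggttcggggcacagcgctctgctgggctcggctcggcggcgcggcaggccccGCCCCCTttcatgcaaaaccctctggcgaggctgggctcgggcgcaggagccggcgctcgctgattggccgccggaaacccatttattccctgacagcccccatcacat
The windows lie at chr13:21787238-21787487 (H2bc22, plus strand), chr3:94837187-94837436 (Pogz, plus), chr5:32746343-32746592 (Pisd, minus), chr19:27316699-27316948 (Gm35438, minus), chr8:74872924-74873173 (Isx, plus) and chr3:34649745-34649994 (Sox2, plus). The stretch before H2bc22 is shared with H2ac22 on the other strand, a divergent pair of core histone genes. Histone genes occur in near-identical copies, so the placing of reads there is uncertain.

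The member over the H2ac22 and H2bc22 starts, chr13:21787245-21787530, was absent from the day 2 list and had summits at 22.0 times background on day 4, 19.8 on day 6, 52.8 on day 8, 45.5 on day 10 and 44.3 on day 12. Here and below, a level is the read pileup at a peak's summit over the background pileup of its list, both recovered from the deposited fold and −log10 p-value. It should be compared within a list only, because the lists differ in depth. A day 0 peak lay 396 bp away. At Pogz, which encodes a zinc finger protein with a transposase-derived domain, the member chr3:94836986-94837707 stood at 15.3 on day 2, 25.04 on day 6, 35.2 on day 8 and 45.5 on day 10, with peaks of both end-point lists 526 and 537 bp away. Pisd, the mitochondrial phosphatidylserine decarboxylase, had a member at chr5:32746130-32746804 with 18.8 on day 2, 18.4 on day 6, 26.4 on day 8, 33.1 on day 10 and 36.2 on day 12. Its nearest end-point peak, in the iPSC list, was 13054 bp away. The member over Gm35438, a non-coding gene, rested on 24.7 on day 2, 10.6 on day 4, 8.98 on day 6, 51.3 on day 8 and 45.5 on day 10.

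Isx encodes an intestinal homeobox protein that is induced by retinoic acid and represses genes of carotenoid uptake. Its member, chr8:74870551-74873160, is 2610 bp wide, runs into the promoter window and was covered in all 6 intermediate lists. Summits stood at 16.6 on day 2, 8.95 on day 4, 8.03 on day 6, 52.8 on day 8, 53.7 on day 10 and 80.5 on day 12. The nearest day 0 peak was 11736 bp away and the nearest iPSC peak 47842 bp. Sox2, a core pluripotency factor, had a different setting: its member, chr3:34649334-34650134, spans the promoter, yet lay only 281 bp from an iPSC peak and 574 bp from a day 0 peak. Levels there were 10.4 on day 2, 13.8 on day 4, 41.0 on day 8 and 40.3 on day 10, with no peak on days 6 and 12. An end of Sox2 was covered in 7 of the 8 lists, day 12 being the exception.

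Coverage among the members was uneven over the days. Day 10 covered 1096 of the 1130 members (97.0%), day 2 covered 1074 (95.04%), day 8 covered 1063 (94.1%) and day 6 covered 942 (83.4%), whereas day 4 covered 682 (60.4%) and day 12 only 366 (32.4%). For all 165616 regions the shares were 25.7% on day 10, 49.9% on day 2, 23.5% on day 8, 33.5% on day 6, 24.4% on day 4 and 18.8% on day 12, and nothing is read from the difference because the rule fixed it. Most members were in 4 lists (534) or 5 lists (489), and 107 were in all 6. The most common set was days 2, 6, 8 and 10, with 319 members, followed by the same days with day 4, with 297.

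**Figure D1:**
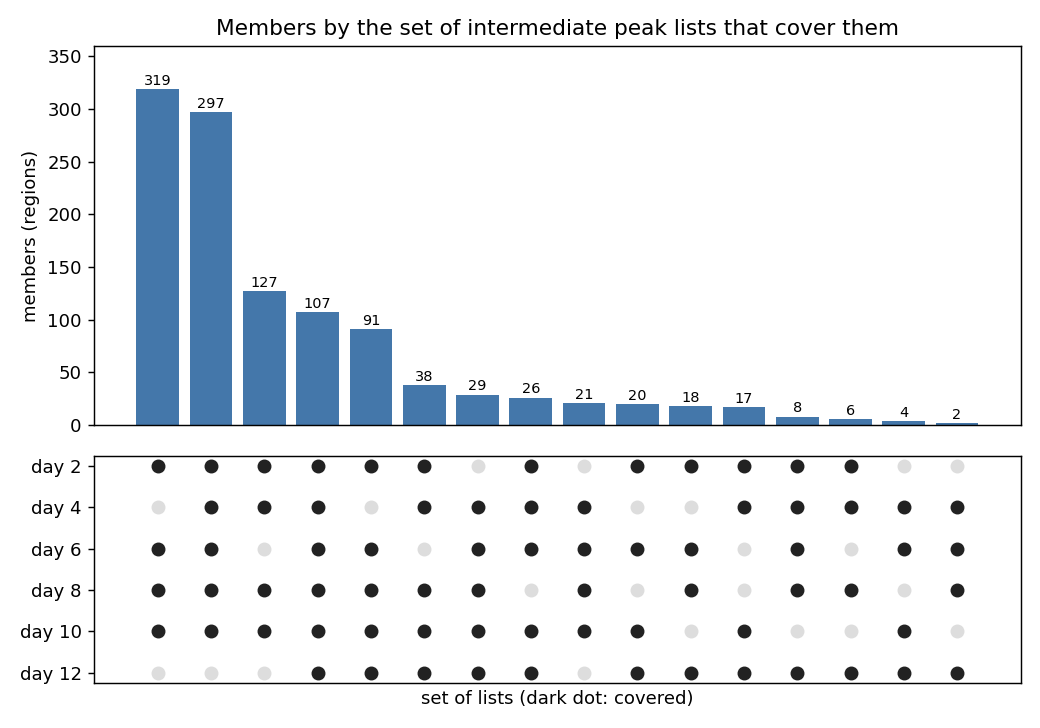
Bars count the members covered by each set of intermediate peak lists, and the dots under each bar show which lists cover them (dark) or do not (light). Days 2, 8 and 10 are dark in the 4 tallest bars (319, 297, 127 and 107 members), while day 12 is light in the first 3.

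The shares of members covered ran in the order of depth within the early and within the late lists, but not across all 6. Background pileup, which grows with depth, was 3.08 reads on day 2, 1.23 on day 4, 2.12 on day 6, 0.682 on day 8, 0.968 on day 10 and 0.249 on day 12, and the days 4 and 12 that cover the fewest members hold the lowest background of the early and of the late lists. The weakest peak of a list stood at 3.25 times background on day 2 but at 12.1 times on day 12, against 4.09 on day 0 and 4.21 in iPSC. How much of the missing coverage on days 4 and 12 follows from depth was not tested. A peak as weak as some of day 2 could not have been called at either end point. Of the 1130 members, 1108 (98.1%) had at least 2 early and 2 late summits above 4.21. For 525 they were above 2 times that limit, which every day 12 peak passes. These counts set levels of lists that differ in depth against 1 limit. They were not made for other regions, so nothing is read from them. All 1130 had the 2 late summits above 4.21, because the weakest peaks of days 8, 10 and 12 stood at 7.33, 6.20 and 12.1. The weakest day 4 peak, at 4.88, was above it too. Whether members would have been called at the end points was not tested.

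Members were a small remainder of the regions open both early and late. Of 17682 regions with at least 2 early and 2 late lists, 12917 (73.1%) were also covered on day 0 and in iPSC, 2410 (13.6%) on day 0 only, 1225 (6.93%) in iPSC only and 1130 (6.39%) in neither. Among regions without an end-point peak, the members made up 5.76% of the 19604 with at least 2 early lists and 12.02% of the 9398 with at least 2 late lists. Regions open in at least 2 early and no late lists, or the reverse, were more numerous, with 16996 for days 2 to 6 and 7295 for days 8 to 12. Just outside the rule were 1478 regions with only 1 late list and 973 with only 1 early list, and just inside were 534 with exactly 2 of each.

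Within each list the members were of middling height. Median levels were 10.1 times background on day 2, 10.6 on day 4, 8.50 on day 6, 19.06 on day 8, 16.5 on day 10 and 28.2 on day 12, beside 10.4, 12.2, 9.45, 19.06, 17.6 and 28.2 for all regions of the same lists. As a rank within its list, the median member stood at the 47.8th percentile on day 2, 44.3rd on day 4, 42.0th on day 6, 50.7th on day 8, 50.3rd on day 10 and 52.1st on day 12. The 107 members in all 6 lists had higher medians, 12.7 on day 2 and 23.5 on day 8. At the threshold, members with exactly 2 early and 2 late lists had a median of 8.12 on day 2, against 10.7 for regions just outside with 1 late list and 6.82 for those with 1 early list.

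**Figure D2:**
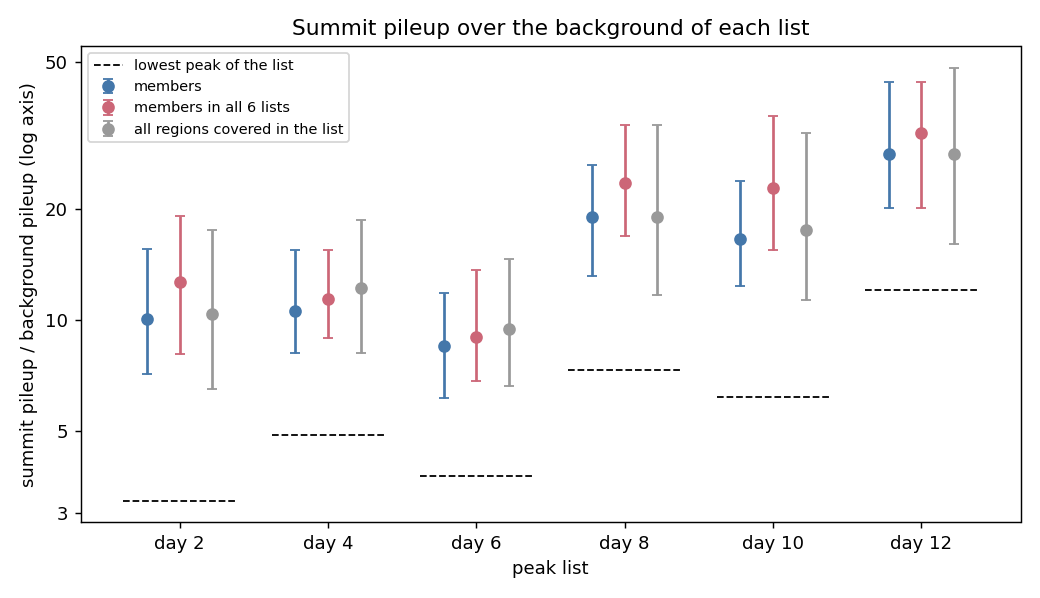
Points give the median summit pileup over background in each intermediate list, bars run from the lower to the upper quartile of the regions, and dashed lines mark the weakest peak of the list, on a log axis. Members (blue) overlap all regions of the list (grey) on every day, with medians of 10.1 and 10.4 on day 2 and 28.2 and 28.2 on day 12.

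Heights kept their order within the early and within the late lists but hardly between them. Over the 107 members in all 6 lists, Spearman's rho across regions was 0.57 to 0.67 for the 3 pairs of early lists and 0.34 to 0.72 for the 3 pairs of late lists. For the 9 pairs of an early with a late list it was 0.02 to 0.25, with a median of 0.14. The same median between early and late lists was 0.70 for the 8975 regions in all 8 lists, 0.29 for the 376 that were also covered on day 0 only and 0.31 for the 223 also covered in iPSC only. These are descriptions across regions, which are not replicates and share the depth of their list.

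**Figure D3:**
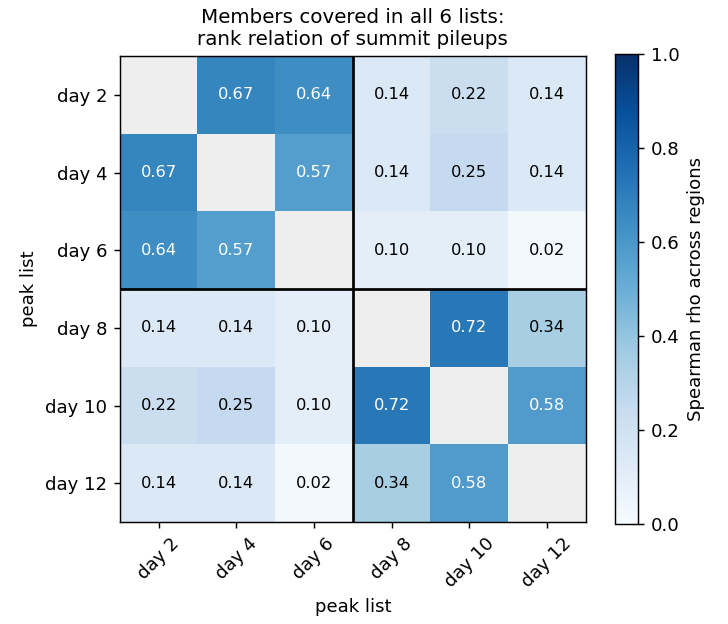
Each square gives Spearman's rho between the summit levels of a pair of peak lists over the 107 members covered in all 6, with black lines between days 6 and 8. Pairs within the early or late block reach 0.34 to 0.72, while pairs across the lines stay at 0.02 to 0.25.

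Single members show this change of order. The region in Gli2, a transcription factor of Hedgehog signalling, at chr1:118878213-118879390, stood at 52.9 on day 2, 44.8 on day 4 and 22.7 on day 6, then at 23.5 on day 8, 22.7 on day 10 and 32.2 on day 12. It was thus further above the member median early than late. A region at chr9:116313979-116315216, with no gene within 100 kb, did the reverse, with 13.0 on day 2, 13.0 on day 4, 21.3 on day 6, 70.4 on day 8, 61.0 on day 10 and 76.5 on day 12. High in every list was the member chr3:151913884-151914752, which lay 76355 bp from Ptgfr, the prostaglandin F receptor gene. Its levels were 39.0, 29.3 and 36.4 on days 2, 4 and 6 and 32.3, 32.0 and 56.3 on days 8, 10 and 12. The member with the highest mean rank of those in all 6 lists, chr6:128763941-128764612, lay 13872 bp from Klrb1c, which encodes a natural killer cell receptor, and stood at 28.6, 42.3 and 20.8 early and 63.0, 39.3 and 56.3 late. A member inside Prkce, a protein kinase C gene, at chr17:86184649-86186060, was at 34.7, 20.3 and 13.2 early and 14.7, 24.8 and 56.3 late.

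Early and late summits also lay further apart in members than in regions of the same days with an end-point peak. The median early and the median late summit of a member were 100.2 bp apart (median over members), and 565 of 1130 (50%) lay within 100 bp. For the 12917 regions with the same days and both end points that distance was 49.5 bp, with 69.6% within 100 bp, and for those with day 0 only or iPSC only it was 73.8 and 85.0 bp. Within the early or the late lists, the spread from the first to the last summit was 82.0 bp early and 63.0 bp late for members, and 93.0 and 73.0 bp for the regions with both end points. This spread is a range and cannot be set against the distance between medians. The number of lists per region was not matched in either measure. All 1130 members nevertheless had an early peak that directly overlapped a late peak.

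A pair of members stood apart in height. The one in Chl1, a neural cell adhesion gene, at chr6:103649065-103649288, was 224 bp wide and reached 199 times background on day 4, 112 on day 6, 337 on day 8, 242 on day 10 and 644 on day 12, with no peak on day 2. The one in Stap2, an adaptor protein gene, at chr17:56005867-56006121, was 255 bp wide and reached 186, 129, 415, 294 and 543 on the same days. Pileups at Chl1 were 244, 238, 230, 234 and 160 reads, in lists whose background ranged from 0.249 to 2.12 reads. The background around the Stap2 summit was itself raised, from 6.39 times that of the list on day 6 to 17.4 times on day 12, and around Chl1 from 2.18 to 11.6 times. Both were the top members by the authors' score in all of these lists. On day 2, the members with the best scores, though not with the highest levels, were a region at chr1:190532776-190533879 with no gene within 100 kb, at 65.2, and one in the integrin gene Itga9 at chr9:118774184-118775436, at 49.3.

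By the rule no member overlapped an end-point peak, and distances to such peaks were not compared with those of other regions. The nearest day 0 or iPSC peak was a median of 6416 bp away, within 1 kb for 106 members (9.38%) and beyond 10 kb for 369 (32.7%). The median width of members was 860 bp, against 754 bp for regions of days 2 to 6 only and 483 bp for those of days 8 to 12 only, which were merged from fewer lists.

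Gene ends held 110 of the 1130 members (9.74%, exact 95% interval 8.07 to 11.6), counting regions within 1 kb of either end of a protein-coding gene. Gene bodies held 458 (40.5%, 37.7 to 43.5) and 562 (49.7%, 46.8 to 52.7) lay between genes. At gene ends the share was 3.13% (2.87 to 3.403) for regions of days 2 to 6 only, 4.22% (3.77 to 4.71) for those of days 8 to 12 only and 10.95% for all regions. Intervals are Clopper-Pearson and cover counting error only. The share was 42.8% with the better-scored 50% of all 8 lists, 24.3% where a list's peaks had to take up at least 50% of the region and 18.8% with all deeper lists scaled to the background of day 8. Among the gene-end members were Rpl13, a ribosomal protein gene (15.3, 14.6 and 16.1 early, 42.5 and 25.8 on days 8 and 10, with a day 0 peak 1316 bp away), and Taf4, a subunit of the general factor TFIID, in all 6 lists (19.2, 23.6 and 16.1 early and 41.0, 19.6 and 28.2 late). At Il1r2, the decoy receptor of interleukin 1, the member was also in all 6 lists (17.2, 8.14 and 13.2 early and 19.06, 19.6 and 20.1 late), with the nearest end-point peak 28929 bp away.

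Short motifs in the 125 promoters under members were counted beside those of other promoters. The 14 motifs searched on both strands were AP-1 TGANTCA, CRE TGACGTCA, TEAD GGAATG, the GATA factor motif AGATAA, FOX TGTTTAC, SOX ACAAAG, OCT ATGCAAAT, KLF GGGTGGG, RUNX TGTGGT, C/EBP TTGCNNAA, GRHL AACCNGTT, a CTCF core AGGNGGC, ETS CGGAAG and AGGTCA of nuclear receptors, where matches of different motifs may overlap. SOX letters stood in 29 of 125 member promoters (23.2%, 16.1 to 31.6), in 14.4% of the 16954 promoters under any region and in 18.7% of all promoters. GATA letters stood in 15 (12%, 6.87 to 19.02), against 6.67% and 11.2%. For the CTCF core the shares were 41.6%, 39.9% and 29.4%, for ETS 22.4%, 26.9% and 16.9%, for AGGTCA 15.2%, 12.5% and 16.3%, and for AP-1 8.80%, 6.15% and 7.81%. OCT letters stood in 0 of 125 (up to 2.91%), against 1.45% and 1.74%. Median GC content was 57.0% in member promoters, 60.3% in those under any region and 52.7% in all. ETS shares ran in the order of GC content, and so did those of KLF, at 20.8%, 21.4% and 17.5%. AGGTCA ran in the reverse order, as did RUNX (15.2%, 12.9% and 16.8%), C/EBP and, by a small margin, TEAD. The other motifs ran in neither order. No difference between the sets was tested, and neither was the part of GC content in these shares. The intervals take the 125 promoters as independent, although some overlap on opposite strands, as at H2ac22 and H2bc22. In the sequences above, the Isx promoter holds a RUNX, a TEAD, a SOX and a CTCF core match and the Sox2 promoter a nuclear receptor, a C/EBP, a SOX and a CTCF core match, whereas the H2bc22 stretch holds none of the 14.

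Members were spread thinly over genes. Assigned to the nearest protein-coding gene within 100 kb, 1005 members fell to 919 genes and 125 to none. Of these genes 843 had 1 member, 67 had 2, 8 had 3 and 1 had 4. Rad51b, a recombination gene with a very long span, had the 4, out of 110 regions assigned to it. Lama1, which encodes the alpha 1 chain of laminin, had 3 of 19 (15.8%), a larger share than Usp12, a deubiquitinase (3 of 27), Trim2 (3 of 33), St7 (3 of 41), Prkce (3 of 57) or Fhit (3 of 88). Ccbe1 and Zbtb7c on chromosome 18 had 3 of 51 and 3 of 52. Among genes with 2 members, Faim, Fmo2, Rtn4ip1 and Tnnt3 had 2 of only 4 regions each. Members did cluster at times: of runs in which neighbours lay at most 50 kb apart, 65 held 2 members and 6 held 3, while 982 members stood alone. The tightest runs of 3 were at Eml4 and Pkdcc (35.6 kb, chr17:83252995-83288630) and at Lsp1 and Tnnt3 (35.9 kb, chr7:142487396-142523326), and the others were at Trim2, 4930564D02Rik, St7 and Rpl21 with Usp12. By chromosome, the share of regions that were members ran from 0.396% on X (14 of 3534) to 0.848% on chromosome 5, with 0 of 59 on Y (up to 6.06%).

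Genes with members often had a peak at an end of the gene, at the end points too. On days 2 to 12 that peak can be the member itself. The sets below were not matched for the number of regions per gene, so nothing is read from their difference. Of the 76 genes with at least 2 members, 71.1% had an end covered on day 0 (59.5 to 80.9), 85.5% on day 2, 77.6% on day 10, 60.5% on day 12 and 78.9% in iPSC. For the 843 genes with 1 member they were 65.5%, 80.6%, 72.2%, 54.7% and 68.0%. For all 21887 protein-coding genes the shares were 55.0%, 62.2%, 56.5%, 44.3% and 58.6%.

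Members at the genes of 22 lists were counted, as a description without a test. Across all genes, 0.715% of the 140623 assigned regions were members. The list of retinoid receptors and metabolism had 7 of 245 (2.86%, 1.16 to 5.80), at 5 of its 17 genes, and that of extraembryonic endoderm 8 of 354 (2.26%, 0.981 to 4.40), at 5 of 21 genes. Counts are small and depend on weak peaks: with the better-scored 50% of the intermediate lists both fell to 0, with the deeper intermediate lists scaled to day 8 they were 4 and 3, and with a list's peaks required to take up at least 50% of the region 1 and 2. The order of the lists changed too. With the better-scored 50% of all lists the retinoid list had 1 member and that of the endoderm 2, against 4 for pluripotency and 3 each for TEAD and WNT genes. With all deeper lists scaled they had 5 and 4, against 7 for WNT genes. For comparison, regions of days 2 to 6 only made up 11.02% of retinoid and 9.32% of endoderm regions, and those of days 8 to 12 only 4.49% and 15.8%. Over all assigned regions these shares were 9.496% and 4.596%.

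**Figure D4:**
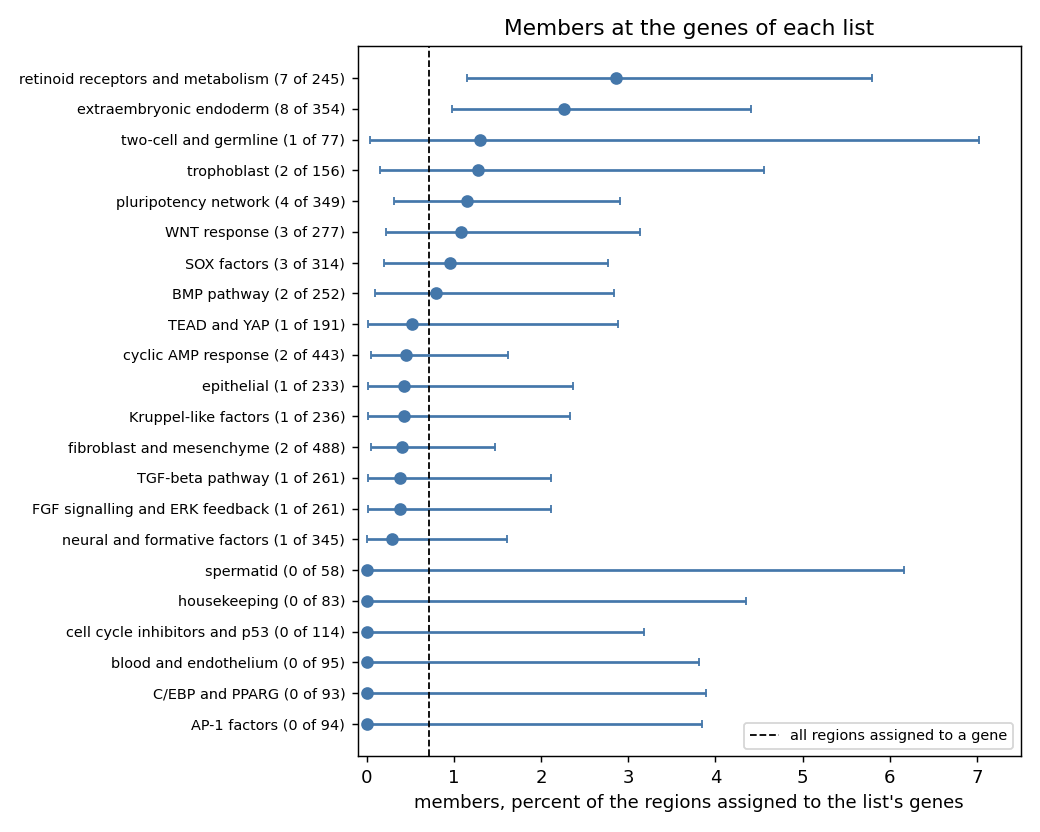
Points give the members as a percentage of the regions assigned to the genes of each list, with exact 95% intervals, and the dashed line the share over all assigned regions (0.715%). Points run from 0 to 2.86% (retinoid genes), the intervals are wide because each list holds 0 to 8 members, and they take regions as independent although some share a gene.

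Retinoid members were assigned to Dhrs3, Rarb, Rxra, Cyp26a1 and Cyp26b1. The other genes of the list had none, among them the receptor genes Rara, Rarg, Rxrb and Rxrg and the enzyme genes Rdh10 and Aldh1a2. Dhrs3, which reduces retinaldehyde to retinol, had 2 of its 5 regions as members, both inside the gene. Its span lies within that of Vps13d, a lipid transfer protein gene, so both members are inside Vps13d as well and were given to the gene with the nearer midpoint. The first, chr4:144905079-144906943, stood at 40.3 on day 2, 35.8 on day 4, 17.5 on day 6, 19.06 on day 8 and 16.5 on day 10 and had no day 12 peak. The second, chr4:144913307-144914175, stood at 28.9 on day 2, 9.92 on day 6, 48.4 on day 8, 46.5 on day 10 and 101 on day 12, without a day 4 peak. So the first was the higher on days 2 and 6 and the second on days 8, 10 and 12. Rarb, a retinoic acid receptor whose gene is itself a target of the pathway, had 2 of 67 regions, both in its body. One, chr14:16547428-16548207, was at 20.5 on day 2, 18.4 on day 6, 9.30 on day 10 and 28.2 on day 12, and the other, chr14:16840788-16842266, at 17.2, 22.0 and 9.45 early and 10.3 and 12.4 on days 8 and 10. No list had a peak at an end of Rarb. The other 3 retinoid members lay outside their genes. Near Rxra, the shared partner of these receptors, chr2:27764374-27765339 was at 5.84 on day 2 and 12.4 on day 10. Near Cyp26a1, which degrades retinoic acid, chr19:37777816-37779215 was 76279 bp from the gene and at 12.01 on day 2 and 16.5 on day 10. At Cyp26b1, chr6:84601258-84601815 was at 8.14 on day 4, 7.09 on day 6, 8.80 on day 8 and 8.27 on day 10.

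**Figure D5:**
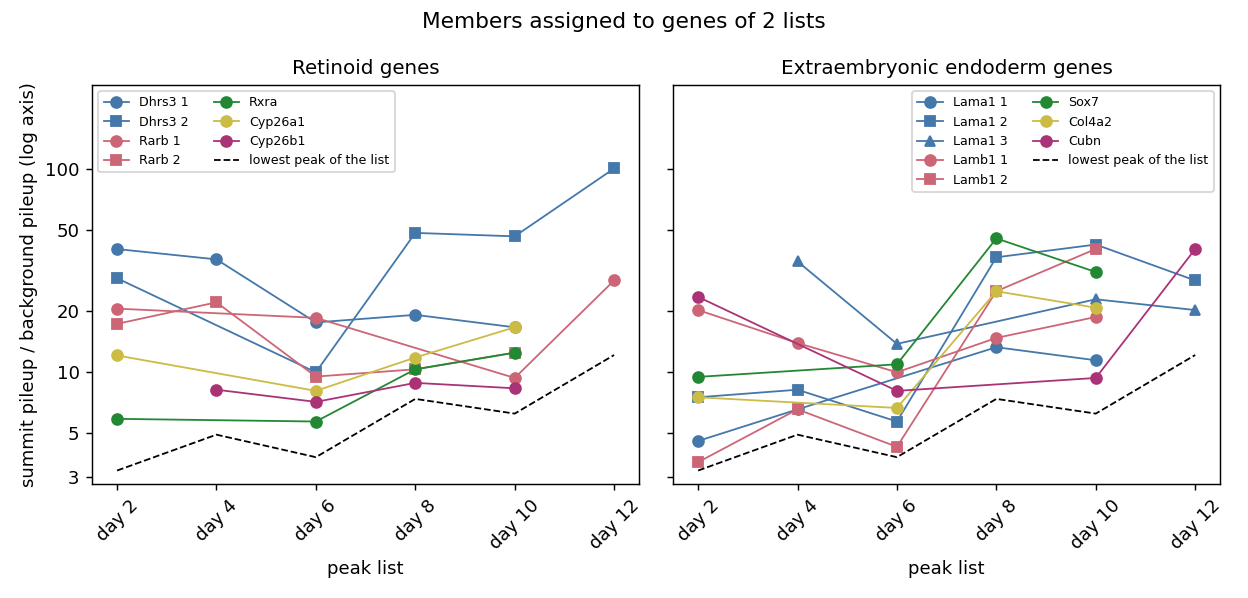
Lines join the summit pileup over background of each member assigned to retinoid genes (left) or extraembryonic endoderm genes (right), on a log axis, with a gap bridged where a list has no peak, members of 1 gene numbered by position and a dashed line at the weakest peak of each list. Dhrs3 2 stands above Dhrs3 1 on days 8 and 10 (48.4 against 19.06), and Lama1 2, Lamb1 2 and Sox7 are at 24.9 to 45.4 on day 8.

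Of the 8 endoderm members, 3 were below the member median in each early list that held them and at or above it in each late list, one each at Lama1, Lamb1 and Col4a2. Of all 1130 members 99 (8.76%) had that pattern, and as many had the reverse, which none of the 8 had. The 8 were picked by a list made with earlier results known, and the difference was not tested. Lama1 and Lamb1 encode chains of laminin, the main product of parietal endoderm laid down in its basement membrane. Outside Lama1, 10157 bp from the gene, chr17:67685130-67686969 was in all 6 lists, at 7.47, 8.14 and 5.67 on days 2, 4 and 6 and at 36.7, 42.4 and 28.2 on days 8, 10 and 12. A neighbour at chr17:67667942-67668639 stood at 4.54 and 6.51 on days 2 and 4 and at 13.2 and 11.4 on days 8 and 10. It was below the member median in each of these lists. Inside the gene, chr17:67741362-67741778 stood at 35.0 on day 4, 13.7 on day 6, 22.7 on day 10 and 20.1 on day 12. Only on day 12 was it below the member median. Near Lamb1, chr12:31246303-31247052 was at 3.57, 6.51 and 4.25 early and at 24.9 and 40.3 on days 8 and 10. The other, chr12:31218202-31219248, was at 20.1, 13.8 and 9.92 early and at 14.7 and 18.6 on days 8 and 10. Over an end of Sox7, a SOX factor of endoderm and endothelium, chr14:63942500-63943988 stood at 9.41 on day 2, 10.9 on day 6, 45.4 on day 8 and 31.0 on day 10. No other region was assigned to Sox7, so the lack of a peak at its ends on day 0 and in iPSC follows from the rule. Col4a2, a basement membrane collagen, had a member at 7.47 and 6.61 early and 24.9 and 20.7 on days 8 and 10, and Cubn, the endocytic receptor cubilin, one at 23.4 and 8.03 early and 9.30 and 40.3 on days 10 and 12.

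The pluripotency list had 4 members in 349 regions (1.15%, 0.313 to 2.91), at Sox2, Nr5a2, Tet2 and Tbx3. Within Nr5a2, a nuclear receptor, chr1:136915436-136915936 was at 12.3 on day 2, 10.9 on day 6, 19.06 on day 8 and 20.7 on day 10. Its gene ends were covered only on days 8, 10 and 12. Near Tet2, an enzyme that oxidises 5-methylcytosine, chr3:133563542-133564467 was at 21.1 on day 2, 4.25 on day 6, 13.2 on day 8 and 52.3 on day 12. At Tbx3, chr5:119685785-119687063 was at 7.47 and 7.09 early and 20.5 and 20.7 late. WNT response genes had 3 of 277 (1.08%), at Lef1, Nkd1 and Ctnnb1. SOX factors had 3 of 314 (0.955%), the Sox2 and Sox7 members among them. Lef1, a nuclear partner of beta-catenin, had higher levels than Nkd1 on days 2 and 6 (21.8, 25.2 and 11.3, then 14.7 and 19.6), and so did the region 88736 bp from Ctnnb1, the beta-catenin gene (38.0, 10.6 and 24.6, then 17.6 and 16.5).

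The other lists held 0 to 2 members each. Fibroblast genes had 2 of 488 (0.410%), both at Zeb2, a repressor of epithelial genes. Of them chr2:45067141-45068252 had 8.12 on day 2 and 48.3 on day 12, and chr2:45184348-45185792 had 9.41 on day 2 and 16.1 on day 8. BMP genes had 2 of 252 (Bmpr2, and Id3 with 30.5, 34.2 and 27.4 early and 55.7 and 38.2 late), cyclic AMP genes 2 of 443 and trophoblast genes 2 of 156 (Elf5 and Tfap2c). A single member lay at the epithelial (Tjp1), TEAD (Tead1), TGF-beta (Smad2), FGF (Fgf8), Kruppel-like (Klf13), neural (Sox5) and germline (Prdm1) lists. Their shares ran from 0.290% of 345 regions (neural) to 1.30% of 77 (germline), beside 0.715% over all assigned regions. AP-1 factors had 0 of 94 (up to 3.85%), C/EBP genes 0 of 93 (up to 3.89%), cell cycle inhibitors 0 of 114 (up to 3.18%) and housekeeping genes 0 of 83 (up to 4.35%).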

How the data were processed

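ATAC-seq peaks of 16 mouse samples in 8 stages were used. Per the submitters' processing notes, the tools were MACS2 2.1.2 (a peak caller), Bowtie2 2.2.5, fastp 0.20.1, deepTools 3.4.3 and SAMtools, on build mm10. Neither their settings, nor a shift for the Tn5 offset, nor the way in which both samples of 1 stage became 1 list is given in the sources used here. Each list the authors deposited holds the peak's position and summit offset, a score, the fold (a ratio) at the summit and its −log10 p-value and −log10 q-value. With 1 list per stage there is no replicate spread, so no test was made and no p-value is given.

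Summit pileups and local backgrounds were recovered here from the deposited fold and −log10 p-value, within 0.001 for at least 99.95% of peaks, and this was tested on simulated data. A list's lowest background is its background pileup. Peaks off chromosomes 1 to 19, X and Y were left out (36 to 57 per list). Depth in reads is unknown.

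Gene spans, without strand, and promoter sequences came from RefSeq tables of GRCm38.p6, the assembly of mm10. The members and the 22 gene lists (328 genes) were chosen with earlier results of these data known. Genes named are the 20 with the most members, up to 3 per list, the 12 members of highest mean rank in all 6 lists, members at promoters or at ends of listed genes, runs of members and the 2 best-scored members of each list; examples among them, and Il1r2, Taf4, Rpl13, Isx and Sox2 promoters, were picked after their values were seen. Alternatives were other peak subsets, merge gaps, day rules, depths, gene-end windows and assignment limits. Python 3.11.15 with pandas 2.3.3, numpy 2.4.6, scipy 1.17.1 and matplotlib 3.10.9 was used.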

Additional observations from a re-analysis of the deposited data

How the results depend on the processing

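The number of members depends strongly on weak peaks and on single lists. From 1130 it went to 169 with the better-scored 50% of the intermediate lists, 670 with the better-scored 50% of all lists, 107 when all 6 days were needed and 548 with the deeper intermediate lists scaled to the background of day 8. Without the day 2, 6, 8 or 10 list, with both other early or late lists then needed, it was 494, 626, 332 or 299. Where a list's peaks had to take up at least 50% of the region, an alternative added after seeing the data, it was 338. It stayed within 1.5 times at 1149 (gaps up to 100 bp merged), 886 and 1029 (without day 4 or 12) and 1024 (no end-point peak within 1 kb). With all deeper lists scaled it was 1064, but that is not the same set. Scaling kept 67.5% of day 0 and 68.6% of iPSC peaks, so regions with a lost end-point peak can enter. With only the intermediate lists scaled, 548 were left. Members in all 6 lists numbered 14, 56 and 8 with the better-scored intermediate peaks, the scaled intermediate lists and the 50% rule. The gene-end share was 11.83%, 42.84%, 11.71%, 18.8%, 14.25% and 24.26% with better-scored intermediate peaks, better-scored peaks of all lists, no day 10 list, all deeper lists scaled, a window of 2.5 kb and the 50% rule. The gene-body share was 33.14%, 25.37%, 46.08%, 44.82%, 35.34% and 31.95% with better-scored intermediate peaks, better-scored peaks of all lists, no day 8 list, no day 10 list, all deeper lists scaled and the 50% rule; the causes were not tested. Of 420 other counts (gene lists and genes) under alternatives, 217 stayed within 1.5 times. The planned overlap of 50% of the shorter changed nothing by construction, since peaks lie inside their merged regions, and other motif windows were not run because only promoter sequences were used. No paired analysis was possible because the authors deposited 1 list per stage and no result comes from a test.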
